A study of Xenopus tropicalis with 4 samples.

Results

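The genes examined here encode the proteins that hold epithelial cells together and to their substrate: claudins and their cytoplasmic partners, cadherins and protocadherins, desmosomal proteins, keratins, EpCAM, integrins and connexins. Tight junctions seal the gap between neighbouring cells through strands of claudins, which TJP proteins and cingulin tie to the actin cortex. Adherens junctions and desmosomes bind cells through cadherins, linked to actin by catenins and to keratin filaments by plakophilins, and connexins form channels between adjoining cells. Integrins are dimers of an alpha and a beta chain that bind the extracellular matrix. The amphibian larval epidermis, which animal caps (ACs, explants of the prospective ectoderm of the blastula) form in culture, depends on all of these contacts.

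RNA was sequenced from ACs of X. tropicalis that had reached NF16, a neurula stage. The embryos had received a control morpholino (CoMo, 2 libraries) or translation-blocking morpholinos against suv4-20h1 and suv4-20h2 together (H1H2Mo, 2 libraries). SUV4-20H1 and SUV4-20H2 are the methyltransferases that convert monomethylated histone H4 lysine 20 to its higher methyl states. Each library came from the pooled RNA of many ACs, the libraries of a condition are described as biological replicates, and no uninjected ACs were analysed here. The question of this comparison is how the junction, keratin and integrin genes differ between ACs depleted of both enzymes and controls.

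Members were the gene identifiers whose name in the gene tables of the study begins with one of the stems cldn, ocln, tjp, cgn, cdh and a digit, pcdh, dsp, dsg, dsc and a digit, pkp, epcam, krt, itga, itgb, gja or gjb. This gave 45 of the 34178 identifiers in the count files, of which 6622 have a name in those tables. The tables at hand list only part of the genes of each comparison, so that junction genes without a name there, among them any ocln, dsp, dsg or gja gene, were not analysed here. The 45 members comprise 8 claudins, 3 tight junction plaque genes, 6 cadherins, 7 protocadherins, 4 desmosomal genes, 4 keratins, epcam, 7 integrin chains and 5 connexins. Of these, 11 have their name from the table of H1H2Mo against CoMo, which holds genes with a small p in the authors' test of these same libraries. The other 34 have their name only from the tables of other AC experiments, with PHF8 or LacZ mRNA. Some of these tables compare ACs with PHF8 mRNA that did or did not also receive H1H2Mo. Names from such tables, as for cgn and cldn23, may therefore also depend on the effect of the depletion.

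The libraries held between 17054150 and 47407319 reverse-strand read pairs on genes, and CoMo replicate 2 was the deepest. Levels are given as CPM (read counts scaled to a common library size) after TMM normalization. CPM values are not corrected for transcript length, so they are compared between libraries and not between genes. H1H2Mo was compared with CoMo by the quasi-likelihood test of edgeR over all 19372 genes counted at least once (1 read) in 3 of the 4 libraries, and a gene is called where its Benjamini-Hochberg adjusted p was under 0.05. Log2 fold changes (log2FC) are H1H2Mo against CoMo and carry the standard error (SE) of the fit. In bulk samples, fewer cells of a type and less RNA per cell cannot be told apart. The H1H2Mo libraries differed more from each other than the CoMo libraries did: among the 3726 genes whose mean reached 50 CPM, 11.8% differed more than 2-fold between the H1H2Mo libraries and 3.33% between the CoMo libraries. Fits that leave out 1 H1H2Mo library take their spread from the CoMo pair and so miss this wider spread. For single members not called with all libraries, only the log2FC of such fits is given. The morpholinos act on translation, so the transcripts of their targets do not check the labels. The transcript of suv420h1 had a log2FC of -0.44, and that of kmt5c, the other target, rose by 1.59.

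Of the 45 members, 44 were tested, 12 were called lower in H1H2Mo, 1 was called higher and 31 were not called. The share called (29.5%) compares with 16.5% of all genes tested (10.7% lower and 5.83% higher) and with 39.4% of the tested genes that have a name. The 10 tested members named from the table of H1H2Mo against CoMo were all called, 9 of them lower, which their source largely fixes and which is therefore not independent evidence. Of the 34 members named through the other tables, 3 were called (8.82%), all of them lower (itga1 and itga5 among them), against 12.6% of the 4407 genes tested that have their name from the same source (6.33% lower). The median log2FC was -0.66 over the 44 members and -0.33 over these 34, compared with 0.05 over all genes tested. Both H1H2Mo libraries lay below both CoMo libraries for 24 members (54.5%, against 30.7% of all genes tested and 42.4% of those with a name). They lay above them for 6 members (13.6%, against 28.8% and 30.1%), and the conditions overlapped for 14. Of all genes tested, 59.5% showed no overlap, so for a single gene the lack of overlap carries little weight. The plot of log2 fold changes by role shows called and uncalled genes side by side among the claudins, cadherins, protocadherins, keratins and integrins, while none of the desmosomal genes was called.

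**Figure D1:**
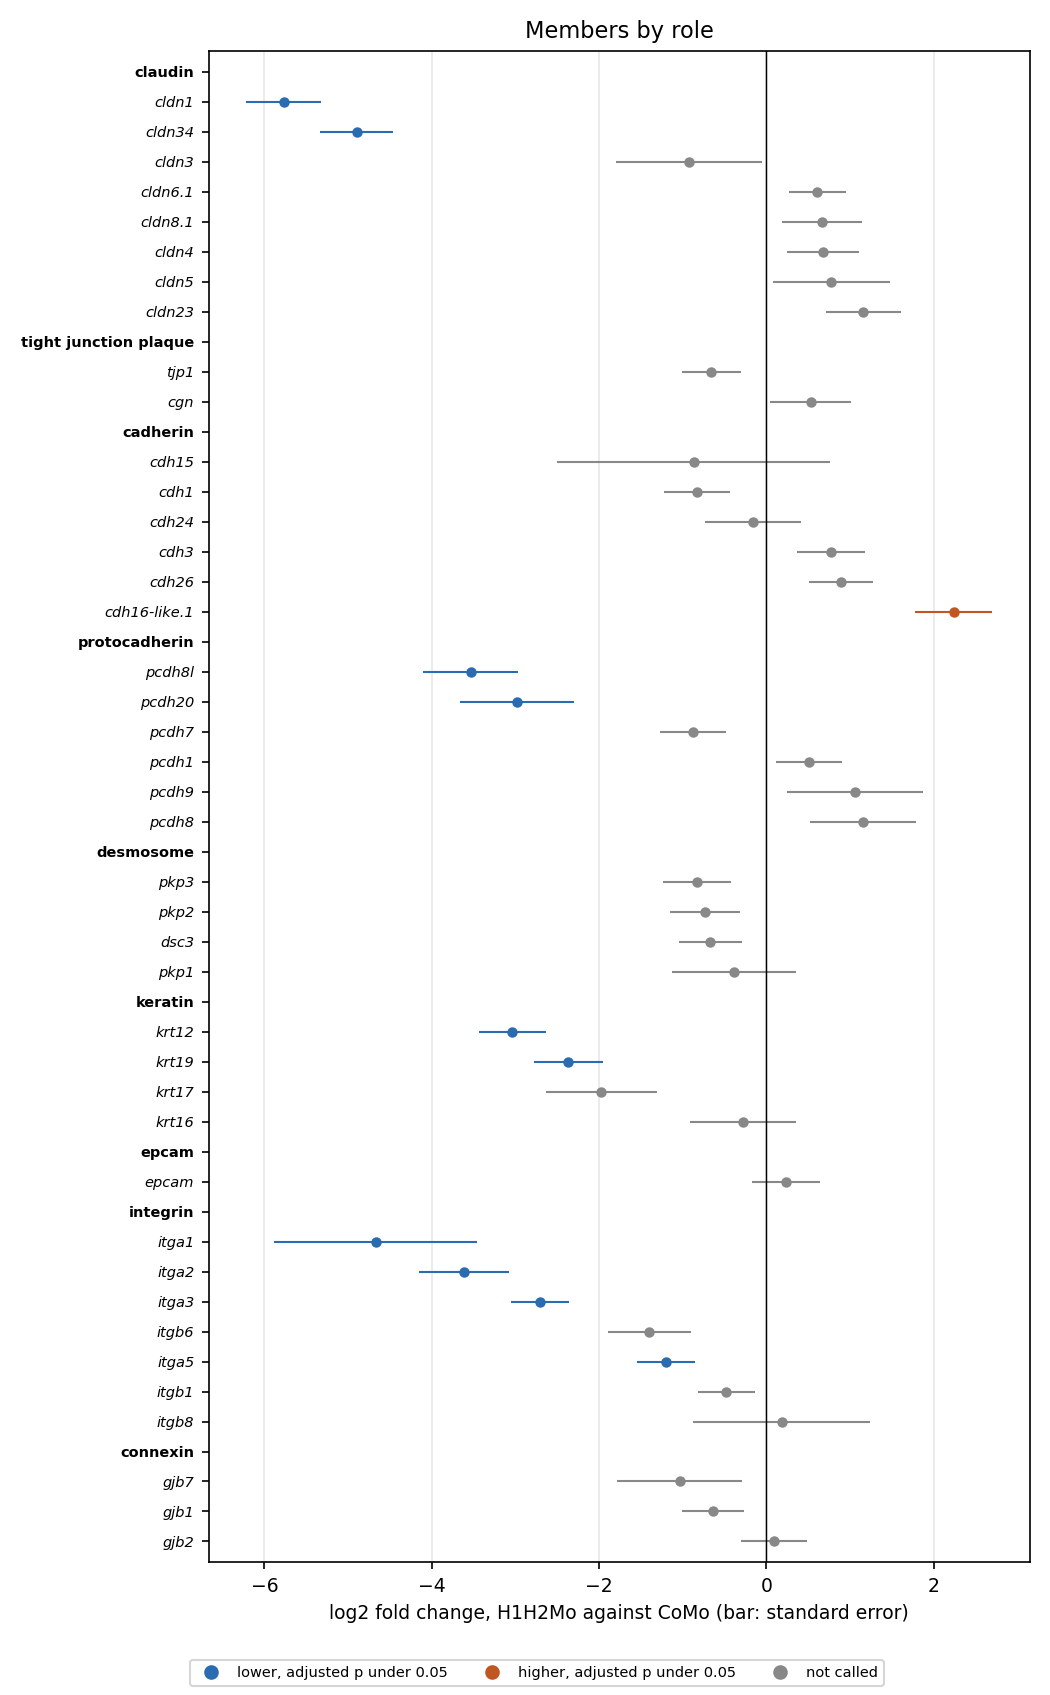
Log2 fold change of H1H2Mo against CoMo (x axis) for 41 of the 44 tested members, grouped by role, each with the standard error of the fit from 2 libraries per condition. Blue points were called lower, the orange point was called higher and grey points were not called; cldn1 at -5.77 lies lowest and cdh16-like.1 at 2.24 highest.

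The claudins split. cldn1, a barrier-forming claudin of the mammalian epidermis (gene4151, chromosome 5 of the assembly used by the authors, X. tropicalis v9.1), had 558 and 429 CPM in CoMo against 6.88 and 11.3 CPM in H1H2Mo. Its log2FC of -5.77 (SE 0.45, edgeR adjusted p = 4.6e-05) was the largest change of the members. cldn34 (gene30617, chromosome 2) went from 77.9 and 60.1 CPM to 1.62 and 3.07 CPM, a log2FC of -4.90 (SE 0.44, edgeR adjusted p = 5.1e-05). For both genes the lowest CoMo library was well above the highest H1H2Mo library, and both were called under each alternative and without each library in turn. Both have their name from the table of H1H2Mo against CoMo, which largely fixes their calls, so these are not independent evidence.

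None of the other 6 claudins was called, and 5 of them had a positive log2FC, as had 9993 of all 19372 genes tested. The share called among the 8 claudins, 25.0%, compares with 16.5% of all genes tested and 39.4% of those with a name. Unlike cldn1 and cldn34, these 6 do not have their name from the table of H1H2Mo against CoMo. cldn4, a claudin of many embryonic and simple epithelia, had 1270 and 1801 CPM in CoMo against 3070 and 1823 CPM in H1H2Mo (log2FC 0.67, SE 0.43, edgeR adjusted p = 0.33). The highest CoMo value thus lay just under the lowest H1H2Mo value, and one H1H2Mo library carried most of the difference. cldn6.1 had 211 and 228 CPM in CoMo against 292 and 378 CPM in H1H2Mo (log2FC 0.61, SE 0.34, edgeR adjusted p = 0.26), with no overlap of the conditions. cldn23 had 41.1 and 78.9 CPM in CoMo against 191 and 76.5 CPM in H1H2Mo (log2FC 1.16, SE 0.45, edgeR adjusted p = 0.10), where H1H2Mo replicate 2 lay within the CoMo range. Without H1H2Mo replicate 2, the log2FC was 1.01 for cldn4 and 1.68 for cldn23. Without H1H2Mo replicate 1 it was 0.26 for cldn4 and 0.36 for cldn23. cldn8.1 and cldn5 overlapped between the conditions, with a log2FC of 0.67 and 0.77, and cldn3 had a mean under 1 CPM. The log2FC of cldn8.1 was -0.50 without H1H2Mo replicate 1 and 1.31 without H1H2Mo replicate 2. Summed over the 8 claudins, the libraries held 2189 and 2636 CPM in CoMo against 3645 and 2316 CPM in H1H2Mo. The summed claudin level thus did not separate the conditions, but cldn4 was the largest part of it in each library.

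The claudins are anchored by a plaque of scaffold proteins. tjp1, which encodes ZO-1, had 120 and 135 CPM in CoMo against 101 and 60.5 CPM in H1H2Mo (log2FC -0.66, SE 0.35, edgeR adjusted p = 0.23). Its log2FC was -1.07 without H1H2Mo replicate 1 and -0.33 without H1H2Mo replicate 2. Cingulin, the product of cgn, had 143 and 333 CPM in CoMo against 490 and 197 CPM in H1H2Mo. Its conditions overlapped in part, and its log2FC changed sign without H1H2Mo replicate 1 (0.53 with all libraries, -0.26 without it).

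**Figure D2:**
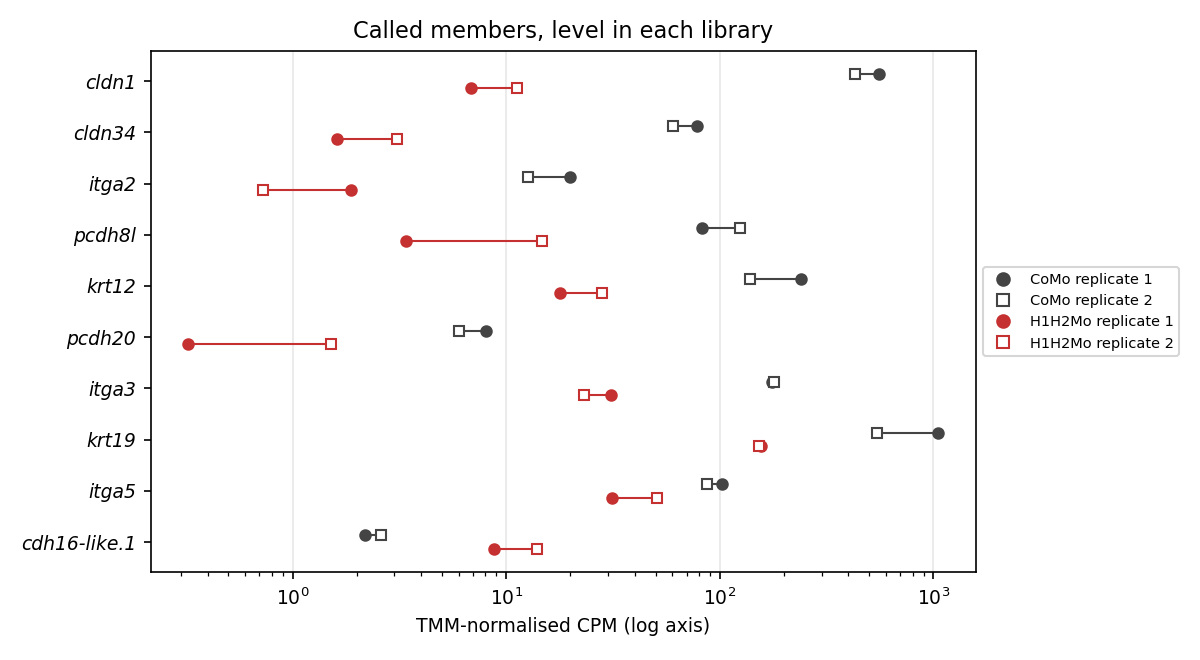
TMM-normalised CPM on a log axis in each of the 4 libraries for 10 of the 13 called members, ordered by log2 fold change; itga1 is left out because one of its values is 0. Grey symbols are CoMo and red symbols H1H2Mo, filled circles replicate 1 and open squares replicate 2; for every gene shown the pairs of symbols do not overlap, from cldn1 (429 CPM or more against 11.3 CPM or less) to cdh16-like.1, the gene whose red symbols lie to the right. The genes were drawn because they were called in these libraries, so the lack of overlap largely follows from that choice. All but itga5 have their name from the table of H1H2Mo against CoMo. Of all genes tested, 59.5% did not overlap.

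The classical cadherins, the adhesion molecules of adherens junctions, had no call, and their directions differed. cdh1, which encodes E-cadherin, had 1505 and 1788 CPM in CoMo against 1087 and 766 CPM in H1H2Mo (log2FC -0.83, SE 0.39, edgeR adjusted p = 0.18). cdh3, which encodes the C-cadherin of the early Xenopus embryo, had 942 and 1164 CPM in CoMo against 1379 and 2222 CPM in H1H2Mo (log2FC 0.77, SE 0.41, edgeR adjusted p = 0.23). In both genes the conditions did not overlap, with cdh1 lower and cdh3 higher in H1H2Mo. Both H1H2Mo libraries lay below both CoMo libraries for 30.7% of all genes tested and above them for 28.8%, so such an order is common. Without H1H2Mo replicate 1 the log2FC was -1.10 for cdh1 and 1.09 for cdh3. Without H1H2Mo replicate 2 it was -0.59 for cdh1 and 0.40 for cdh3. The log2 ratio of cdh1 to cdh3 CPM within a library was 0.68 and 0.62 in CoMo and -0.34 and -1.54 in H1H2Mo, a difference of -1.59. An exact two-sided permutation test of this ratio gave p = 0.333, the smallest value that 2 libraries against 2 allow, and the pair was picked after its values were seen. The genes stand next to each other, with 0 protein-coding genes between them, in the RefSeq gene order of the assembly UCB_Xtro_10.0.

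The member called higher was a cadherin of another kind. Its name comes from the table of H1H2Mo against CoMo, which largely fixes its call. cdh16-like.1 (gene3984, chromosome 4), named after a kidney cadherin of mammals, had 2.19 and 2.60 CPM in CoMo against 8.75 and 14.0 CPM in H1H2Mo, a log2FC of 2.24 (SE 0.46, edgeR adjusted p = 0.0056). Its reads were few but countable, 36 and 114 in CoMo and 243 and 251 in H1H2Mo. The call was lost without CoMo replicate 1 (edgeR adjusted p = 0.14) and without CoMo replicate 2 (edgeR adjusted p = 0.10). cdh26 had 35.8 and 42.9 CPM in CoMo against 45.8 and 100 CPM in H1H2Mo (log2FC 0.89, SE 0.39, edgeR adjusted p = 0.14), the second H1H2Mo library being the one that stood apart. Without H1H2Mo replicate 1 the log2FC of cdh26 was 1.36, and without H1H2Mo replicate 2 it was 0.22. cdh24 overlapped between the conditions, at 1.90 to 3.44 CPM. cdh15 had between 0 and 4 reverse-strand reads per library, while 92.5% of its stranded reads lay on the opposite strand, so that nothing can be said of its level.

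Among the protocadherins, which mediate weaker and more selective adhesion than the classical cadherins, 2 were called, both lower. Both have their name from the table of H1H2Mo against CoMo, which largely fixes their calls. The share called among the tested protocadherins, 33.3%, compares with 16.5% of all genes tested and 39.4% of those with a name. pcdh8l (gene30448, chromosome 7), whose name marks it as a relative of pcdh8, had 82.6 and 125 CPM in CoMo against 3.39 and 14.7 CPM in H1H2Mo, a log2FC of -3.53 (SE 0.57, edgeR adjusted p = 0.0012). The H1H2Mo libraries differed 4.33-fold from each other and both lay far below CoMo. Without CoMo replicate 2 the adjusted p was 0.058 and the log2FC -3.20. pcdh20 (gene2429, chromosome 2) had 8.04 and 6.03 CPM in CoMo against 0.32 and 1.51 CPM in H1H2Mo, a log2FC of -2.98 (SE 0.68, edgeR adjusted p = 0.010). It rested on 9 and 27 reads in H1H2Mo, and its call was lost without CoMo replicate 1 (edgeR adjusted p = 0.17) and without CoMo replicate 2 (edgeR adjusted p = 0.11).

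None of the other tested protocadherins was called with all libraries. pcdh7 had 127 and 245 CPM in CoMo against 124 and 79.1 CPM in H1H2Mo (log2FC -0.88, SE 0.39, edgeR adjusted p = 0.15), so that the conditions almost touched. Its log2FC was -1.22 without H1H2Mo replicate 1 and -0.58 without H1H2Mo replicate 2. pcdh1 had 185 and 234 CPM in CoMo against 400 and 197 CPM in H1H2Mo, which overlap. Its log2FC of 0.51 became -0.083 without H1H2Mo replicate 1 and 0.94 without H1H2Mo replicate 2. pcdh8 and pcdh9 had levels of a few CPM and no call. The log2FC of pcdh9 was 1.90 without H1H2Mo replicate 2 and -1.32 without H1H2Mo replicate 1. pcdh9 and pcdh20, which have 1 protein-coding gene between them in the RefSeq order, had a log2FC of 1.06 and -2.98.

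pcdhgc4 (gene27516, chromosome 3) was the member that was not tested, and its counts depend on the strand. On the strand of the gene, the libraries held 0, 3, 3 and 0 reads in the order CoMo 1, CoMo 2, H1H2Mo 1 and H1H2Mo 2. On the opposite strand they held 425, 596, 17 and 27 reads, which is 99.4% of its stranded reads. The opposite-strand reads were lower in H1H2Mo by a log2FC of -4.75 (SE 0.62, edgeR adjusted p = 1.1e-10 over the 11212 genes tested on that strand, of which 1.77% were called). With counts that ignore strand, pcdhgc4 was called lower with a log2FC of -4.19. Its name comes only from the table of H1H2Mo against CoMo, so these differences are not independent evidence. The transcript that gave these reads was not identified, and for 38 of the 45 members the opposite strand held under 5% of the stranded reads.

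All 4 desmosomal members had a negative log2FC and none was called. dsc3, which encodes the desmosomal cadherin desmocollin 3, had 500 and 621 CPM in CoMo against 431 and 272 CPM in H1H2Mo (log2FC -0.67, SE 0.37, edgeR adjusted p = 0.26). pkp3, which encodes a plakophilin that links desmosomal cadherins to keratin through desmoplakin, had 509 and 640 CPM in CoMo against 430 and 215 CPM in H1H2Mo (log2FC -0.83, SE 0.40, edgeR adjusted p = 0.19). In both genes the conditions did not overlap, as for 59.5% of all genes tested, and H1H2Mo replicate 2 was the lowest library. Without H1H2Mo replicate 1 the log2FC was -1.03 for dsc3 and -1.41 for pkp3. Without H1H2Mo replicate 2 it was -0.37 for dsc3 and -0.41 for pkp3. pkp2 had 14.9 and 14.9 CPM in CoMo against 11.8 and 6.02 CPM in H1H2Mo (log2FC -0.73, edgeR adjusted p = 0.27), and the low pkp1 overlapped between the conditions. Summed over the 4 genes, the level was 1024 and 1276 CPM in CoMo against 874 and 494 CPM in H1H2Mo.

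Keratins form the intermediate filaments to which desmosomes are anchored, and 2 of the 4 keratin members were called lower. Both called genes, krt19 and krt12, have their name from the table of H1H2Mo against CoMo, which largely fixes their calls. krt19 (gene2140, chromosome 10), a type I keratin of simple epithelia in mammals, had 1051 and 545 CPM in CoMo against 156 and 153 CPM in H1H2Mo, a log2FC of -2.37 (SE 0.41, edgeR adjusted p = 0.0019). The H1H2Mo libraries were close to each other, while CoMo replicate 1 held almost 2-fold the level of CoMo replicate 2. Without CoMo replicate 1 the log2FC was -1.80 (edgeR adjusted p = 0.10). krt12 (gene555, scaffold_39) had 239 and 138 CPM in CoMo against 17.8 and 28.2 CPM in H1H2Mo, a log2FC of -3.04 (SE 0.40, edgeR adjusted p = 0.00036), and was called without each library in turn. krt17, which lies 2 protein-coding genes from krt19 in the RefSeq order, had 2.86 and 2.50 CPM in CoMo against 0.68 and 0.67 CPM in H1H2Mo (log2FC -1.98, SE 0.66, edgeR adjusted p = 0.061). krt16, on the same scaffold as krt12, had 9.08 and 1.87 CPM in CoMo around 4.39 and 4.46 CPM in H1H2Mo, so the CoMo libraries differed more from each other than the conditions did. A further larval keratin, xk81a1, which RefSeq lists as a synonym of a krt12 family gene, was examined as a partner gene. It fell from 2258 and 2411 CPM to 942 and 659 CPM (log2FC -1.54, SE 0.40, edgeR adjusted p = 0.020). The name of xk81a1, too, comes from the table of H1H2Mo against CoMo, which largely fixes its call. Keratin genes are closely related. Multimapping read pairs, which made up 6.81% to 8.11% of each library, are not in the counts, so near-identical paralogs of this and the other families may be undercounted.

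epcam, which encodes an adhesion molecule of epithelial cells, had 1009 and 1483 CPM in CoMo against 1779 and 1156 CPM in H1H2Mo. The conditions overlapped and the log2FC was 0.24 (SE 0.41, edgeR adjusted p = 0.75), turning to -0.10 without H1H2Mo replicate 1. The lowest of its 4 values was in CoMo and the highest in H1H2Mo.

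**Figure D3:**
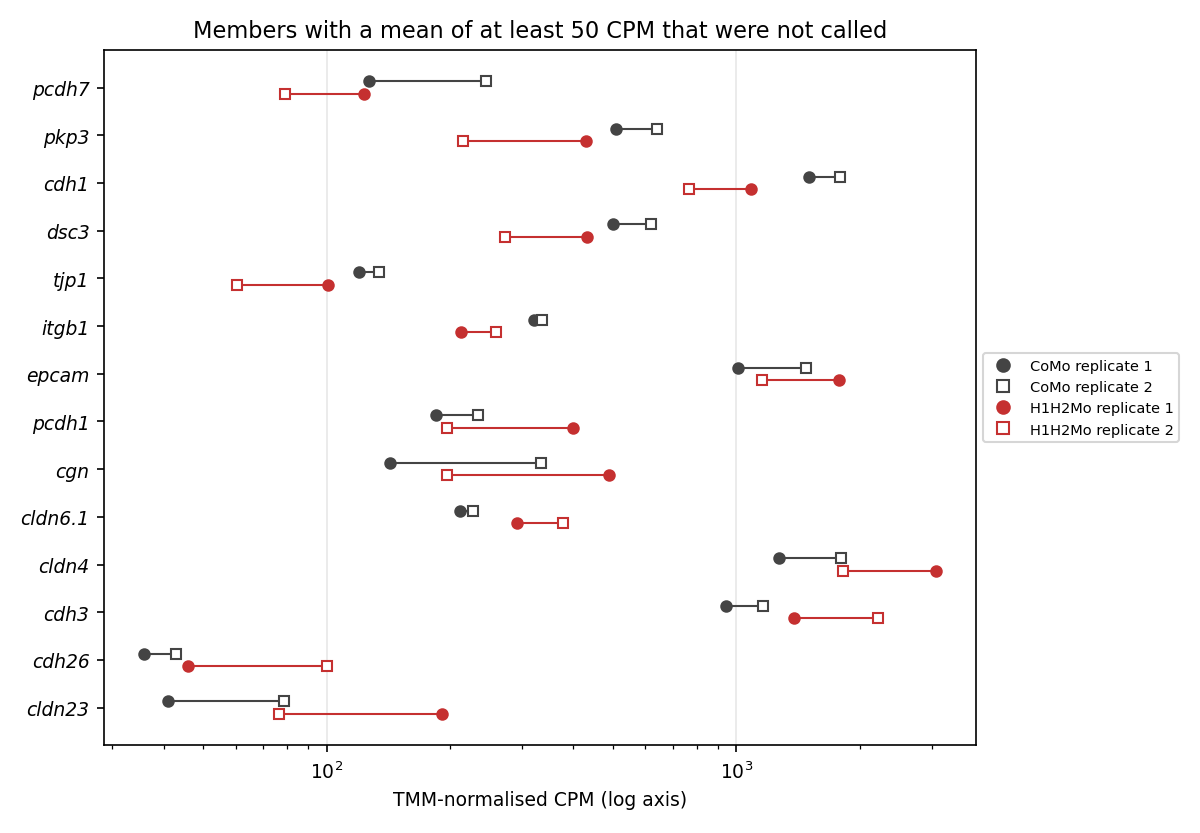
TMM-normalised CPM on a log axis in each of the 4 libraries for the 14 members that had a mean of at least 50 CPM and were not called, ordered by log2 fold change. Symbols as for the called members: the red H1H2Mo pairs are wide, as in cgn (490 and 197 CPM) and cldn23 (191 and 76.5 CPM), and lie left of CoMo for genes such as cdh1 and right of it for cdh3.

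The integrins held the most calls, with 4 of 7 chains lower and none higher. This share of 57.1% compares with 16.5% of all genes tested and 39.4% of those with a name. itga2 and itga3 have their name from the table of H1H2Mo against CoMo, which largely fixes their calls. itga3 (gene32386, chromosome 10), the alpha chain of a laminin receptor of basal epithelial cells, had 176 and 178 CPM in CoMo against 31.0 and 23.2 CPM in H1H2Mo, a log2FC of -2.71 (SE 0.34, edgeR adjusted p = 0.00027). The libraries of each condition were close together, and the call held without each library in turn. itga2 (gene23450, chromosome 1), the alpha chain of a collagen receptor, had 20.0 and 12.6 CPM in CoMo against 1.87 and 0.73 CPM in H1H2Mo, a log2FC of -3.61 (SE 0.54, edgeR adjusted p = 0.00069). Its adjusted p was 0.051 without CoMo replicate 1, at a log2FC of -3.23. itga5 (gene16031, chromosome 2), which with itgb1 forms the fibronectin receptor, had 102 and 87.3 CPM in CoMo against 31.3 and 51.0 CPM in H1H2Mo, a log2FC of -1.20 (SE 0.35, edgeR adjusted p = 0.032). The call was lost without CoMo replicate 1 (edgeR adjusted p = 0.29), without CoMo replicate 2 (edgeR adjusted p = 0.16) and without H1H2Mo replicate 1 (edgeR adjusted p = 0.072).

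itga1 (gene18310, chromosome 1), the alpha chain of another collagen receptor, had 21 and 59 reads in CoMo and 0 and 2 reads in H1H2Mo (edgeR adjusted p = 0.019). The ratio of its summed reads, scaled to library size, was 30.3 for CoMo over H1H2Mo, with an exact 95% interval from 8.12 to 254 that covers counting error only. itga1 and itga2 are direct neighbours in the RefSeq order. The beta chains were not called. itgb1, the common partner of these alpha chains, had 321 and 336 CPM in CoMo against 213 and 259 CPM in H1H2Mo (log2FC -0.48, SE 0.34, edgeR adjusted p = 0.38). Its conditions did not overlap, but a change of this size was not detectable with 2 libraries per condition, where 3194 of the 3196 called genes had an absolute log2FC of at least 1. itgb6 had 8.53 and 9.20 CPM in CoMo against 4.61 and 2.06 CPM in H1H2Mo (log2FC -1.40, SE 0.49, edgeR adjusted p = 0.073), and itgb8 had a mean under 1 CPM. The summed level of the 7 chains was 630 and 625 CPM in CoMo against 282 and 337 CPM in H1H2Mo. In each library itgb1 was the largest part of this sum. Its fall includes itga2 and itga3, named from the table of H1H2Mo against CoMo, and itga3 alone went from a mean of 177 CPM to 27.1 CPM.

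Connexins form the channels of gap junctions, and the levels of gjb1, gjb2 and gjb7 were examined singly. None of these was called. gjb2 had 23.8 and 17.8 CPM in CoMo against 29.4 and 14.8 CPM in H1H2Mo, where the wider H1H2Mo pair encloses the CoMo pair (log2FC 0.09, edgeR adjusted p = 0.90). gjb1 had 28.2 and 36.3 CPM in CoMo against 26.5 and 14.9 CPM in H1H2Mo (log2FC -0.64, edgeR adjusted p = 0.28), without overlap. gjb7 was low, at 0.45 to 2.56 CPM.

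Proteins that act with the members were examined as 63 partner genes in lists, of which 16 were called lower and 6 higher (34.9%, against 16.5% of all genes tested and 39.4% of those with a name). Their median log2FC was -0.39. Again 14 of them had their name from the table of H1H2Mo against CoMo, and all 14 were called. Of the 49 named elsewhere, 4 were lower and 4 higher (16.3%, against 12.6% of genes of that source). By list, the share called was 38.5% for adherens junction and for contractile cortex genes. It was 33.3% for integrin and basement membrane genes and for epithelial regulators, and 16.7% for tight junction and desmosome genes. The calls of fermt1, lamb1, myl9, vasp and snai2 held in all settings, including those without each library in turn. All of these genes have their name from the table of H1H2Mo against CoMo, which largely fixes their calls. The calls of the other 17 partner genes were lost without CoMo replicate 1, and all but that of pard3 also without CoMo replicate 2.

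Of 13 adherens junction and polarity genes, 4 were called higher and 1 lower. The share called, 38.5%, is close to the 39.4% of all tested genes with a name. pard3 and llgl1 have their name from the table of H1H2Mo against CoMo, which largely fixes their calls. pard3, a scaffold of the apical polarity complex, rose from 26.1 and 39.2 CPM to 132 and 124 CPM (log2FC 1.97, SE 0.34, edgeR adjusted p = 0.0019). The basolateral polarity genes llgl1 (log2FC 1.43, edgeR adjusted p = 0.019) and scrib (log2FC 1.56, edgeR adjusted p = 0.023) were also higher, as was the catenin relative ctnnal1 (log2FC 1.03, edgeR adjusted p = 0.045). actn1, which encodes an actin crosslinker, was lower (log2FC -1.41, edgeR adjusted p = 0.028). The catenins that bind cadherins had a log2FC of 0.27 for ctnnb1, -0.38 for ctnna1 and -0.28 for arvcf, without a call.

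Of 6 further tight junction and desmosomal genes, only ppl, which encodes the plakin periplakin, was called. It had 1194 and 1552 CPM in CoMo against 679 and 257 CPM in H1H2Mo (log2FC -1.55, SE 0.47, edgeR adjusted p = 0.040), and the call was lost with upper-quartile normalization. The values of its relative evpl, which encodes envoplakin, overlapped between the conditions (log2FC -0.57). perp, which encodes a tetraspan protein of desmosomes, had a log2FC of -1.02 (edgeR adjusted p = 0.088), and marveld2, which encodes tricellulin, had 0.21 (edgeR adjusted p = 0.74).

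Among 18 genes that link integrins to the cytoskeleton or form the basement membrane, 5 were called lower and 1 higher. The share called, 33.3%, compares with 16.5% of all genes tested and 39.4% of those with a name. Of the lower genes, fermt1, lamb1, dst and bcar1 have their name from the table of H1H2Mo against CoMo, which largely fixes their calls. fermt1, which encodes the integrin activator kindlin-1, fell from 110 and 69.8 CPM to 2.74 and 2.79 CPM (log2FC -5.02, SE 0.41, edgeR adjusted p = 4.6e-05). lamb1, a laminin chain, fell from 378 and 337 CPM to 33.2 and 67.4 CPM (log2FC -2.83, SE 0.41, edgeR adjusted p = 0.00057). dst (log2FC -1.79), bcar1 (log2FC -1.54) and cd151, a tetraspanin that binds laminin receptors (log2FC -1.31), were lower and tns2 (log2FC 1.64) was higher. tns2 had no call with the filter of 10 reads in 2 libraries. The laminin chains lama5 (log2FC -0.02) and lamc1 (log2FC -0.39) were not called.

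Of 13 genes of the contractile actin cortex, 4 were called lower and 1 higher. The share called, 38.5%, is close to the 39.4% of all tested genes with a name. All 4 lower genes have their name from the table of H1H2Mo against CoMo, which largely fixes their calls. The nonmuscle myosin heavy chains went in opposite directions: myh9, whose call was lost with upper-quartile normalization, fell from 3337 and 3065 CPM to 1284 and 1329 CPM (log2FC -1.29, edgeR adjusted p = 0.043), and myh10, whose call was lost with a filter of 10 reads in 2 libraries, rose from 8.59 and 23.8 CPM to 62.8 and 34.2 CPM (log2FC 1.57, edgeR adjusted p = 0.037). vasp (log2FC -2.51), rock1 (log2FC -1.63) and myl9 (log2FC -4.43) were lower, and rock2 (log2FC 0.57) was not called. The 12 regulators of the epithelial state included 4 genes called lower and none called higher. This share of 33.3% is below the 39.4% of all tested genes with a name. Of the lower genes, tp63, grhl2 and snai2 have their name from the table of H1H2Mo against CoMo, which largely fixes their calls. tp63, the transcription factor of basal epidermal cells, fell from 279 and 492 CPM to 67.0 and 125 CPM (log2FC -2.01, edgeR adjusted p = 0.0061). grhl2, an activator of junction genes in mammals, was lower (log2FC -1.56). So were snai1 (log2FC -1.58) and snai2 (log2FC -3.48), repressors of E-cadherin in other systems. twist1 and zeb2 of the same list, at a mean of 1.28 and 1.73 CPM, had a log2FC of 1.63 and 0.60 without a call. esrp1, an epithelial splicing factor, had a log2FC of -0.34 and was not called.

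**Figure D4:**
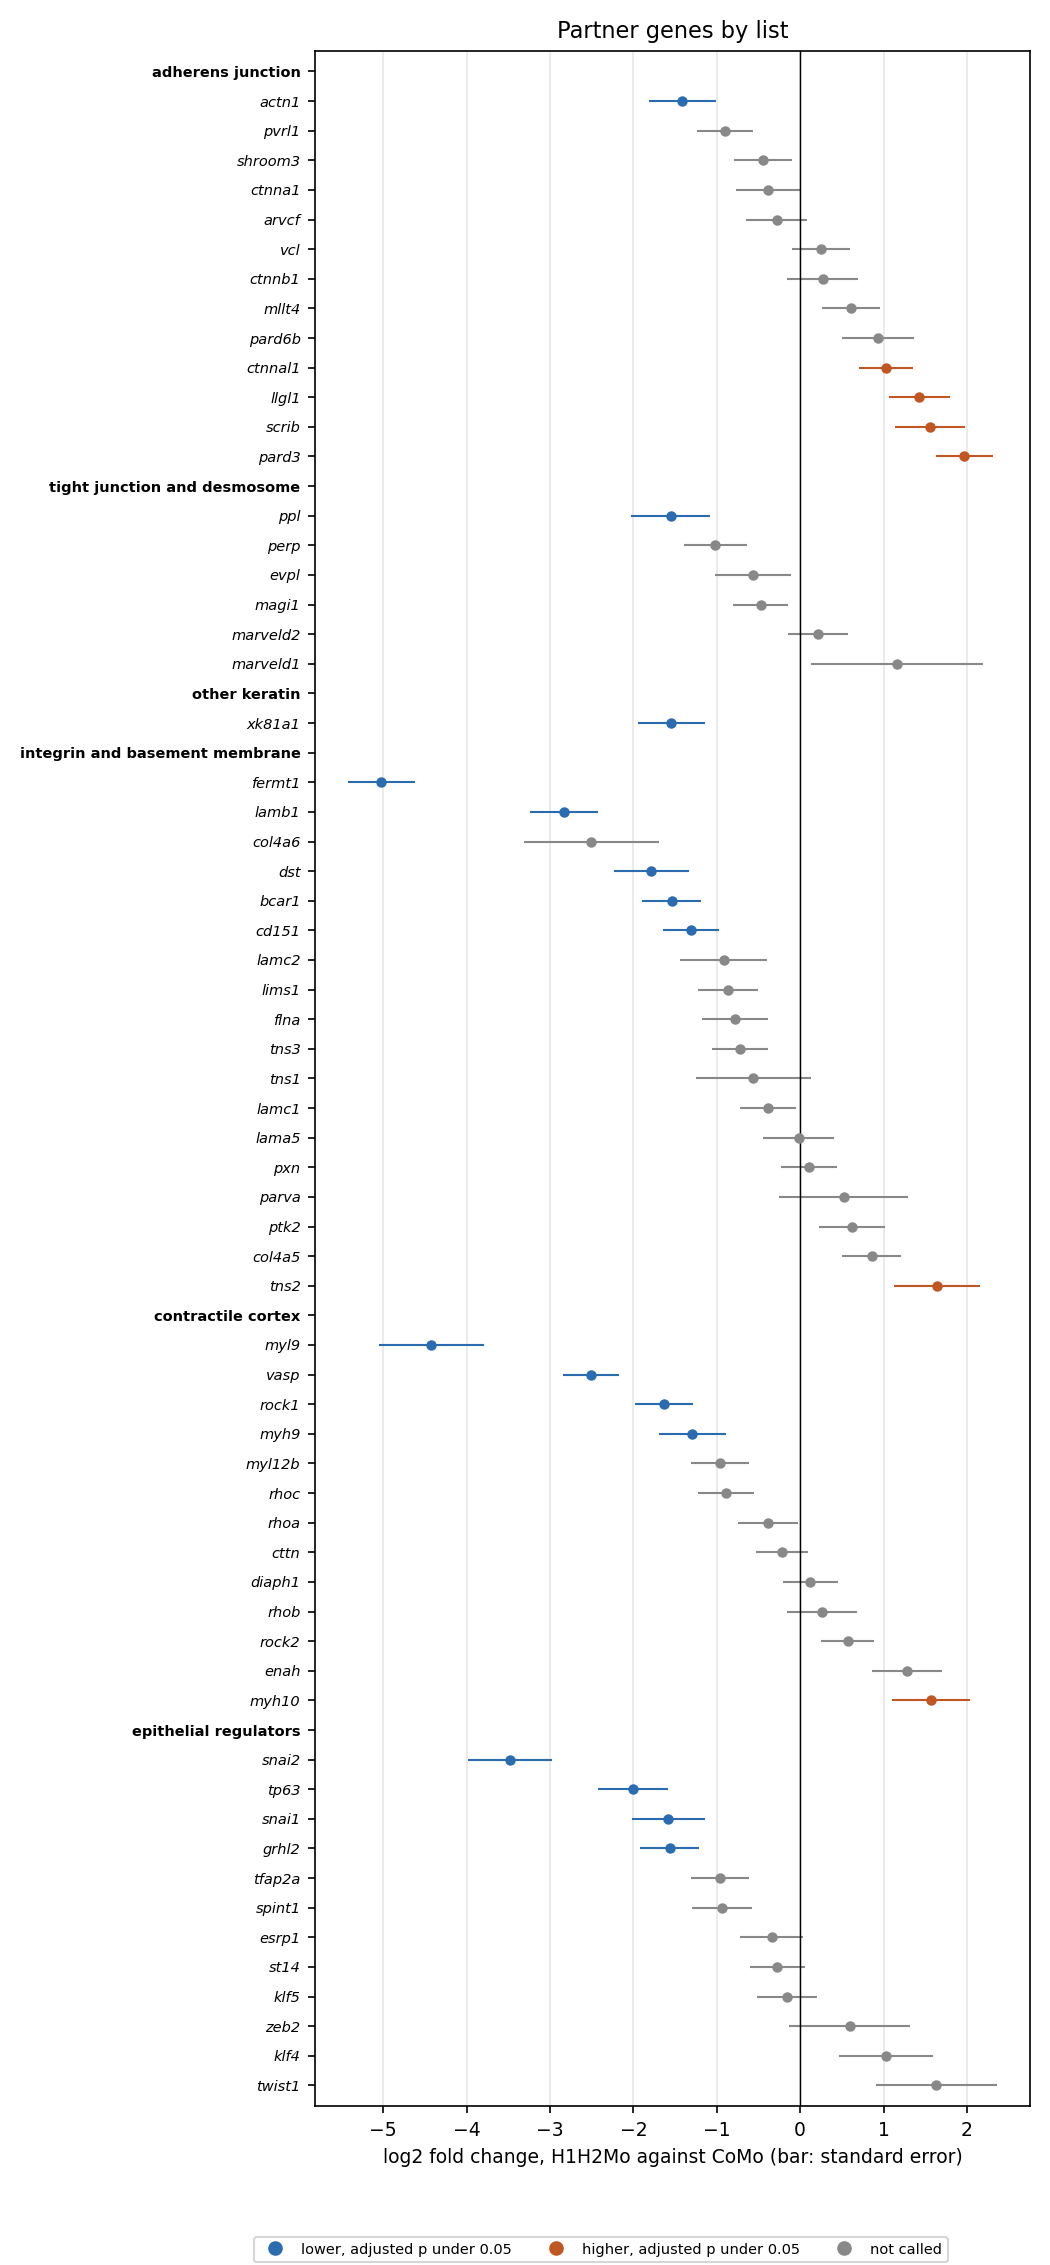
Log2 fold change of H1H2Mo against CoMo (x axis) with the standard error of the fit for the 63 partner genes in 6 lists, from 2 libraries per condition. Blue points were called lower (16 genes, fermt1 at -5.02 the lowest), orange points higher (6 genes, pard3 at 1.97 the highest) and grey points were not called. Of the 6 higher genes, 4 are in the adherens junction list, with pard3 and llgl1 among them named from the table of H1H2Mo against CoMo.

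Markers of the cell types of the AC epidermis were examined as well. Of these, both small secretory cell genes (foxa1 and ddc), 4 of 7 multiciliated cell genes (the tektins tekt1 to tekt4), 2 of 3 goblet cell genes (itln1 and itln2), 1 of 5 ionocyte genes (atp6v1b1) and the basal cell gene tp63 were called lower. Every called marker has its name from the table of H1H2Mo against CoMo, which largely fixes its call, so these counts are not independent evidence. Of all genes tested 16.5% were called, and 39.4% of those with a name. Of the other multiciliated cell genes, none was called. mci-like had 58.7 and 84.1 CPM in CoMo against 93.5 and 285 CPM in H1H2Mo (log2FC 1.40), and foxj1 and foxn4 had a log2FC of -0.88 and 0.00. The third goblet cell gene, otog, was not called, and its values overlapped between the conditions. The summed small secretory markers went from 133 and 96.8 CPM to 4.29 and 3.40 CPM, and the summed multiciliated cell markers from 1053 and 880 CPM to 270 and 626 CPM, the last of which includes the 285 CPM of mci-like. Neural markers (3 of 3 lower) summed to 121 and 27.6 CPM in CoMo against 4.21 and 6.80 CPM in H1H2Mo. They were thus highest in CoMo replicate 1, as were krt19 and krt12. This was not particular to the keratins, since cldn1, cldn34, itga2 and fermt1 were also highest there, but itga3 and pcdh8l were not. The 4 endoderm markers, none of them called, summed to 2.13 and 5.15 CPM in CoMo against 20.8 and 4.80 CPM in H1H2Mo. The 3 muscle markers, of which myl1 was called lower, summed to 28.45 and 25.55 CPM in CoMo against 31.6 and 5.80 CPM in H1H2Mo. The leukocyte gene ptprc rose from 0.24 and 0.34 CPM to 1.44 and 11.6 CPM. The part of these shifts in the changes of the junction, keratin and integrin genes was not tested.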

How the data were processed

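The authors aligned the paired-end reads of 4 X. tropicalis AC libraries to assembly v9.1 with STAR 2.7.1a, counted read pairs per gene in the same run with gene models converted by Cufflinks, and deposited these raw counts without normalization in 3 versions (either strand, forward strand, reverse strand). The reverse-strand counts were used, since they held 97.49% to 98.16% of the stranded reads. Names came from the study's gene tables, whose columns of the authors' fold changes and p-values were not used. Counts were analysed with edgeR 4.0.16 in R 4.3.3 (TMM, quasi-likelihood test, Benjamini-Hochberg adjustment over 19372 genes counted in 75% of the samples, threshold 0.05), where the study's methods name DESeq2. SEs were computed from the log2FC and the F statistic. DESeq2 1.42.0, other normalizations, filters and strand settings, the replicate number as a block and each library left out in turn were alternatives. The procedures were tested on simulated data with the same spread in both conditions. That test does not cover the wider spread of the H1H2Mo libraries. The replicate libraries differed by more than sampling noise (chi-square per degree of freedom 83.9 for CoMo and 116.2 for H1H2Mo). Precision is limited by having 2 libraries per condition, and for low genes by depth.

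Values of single libraries are given for members that were called or had a mean of at least 50 CPM, and for some below it. Of the 45 members, 42 matched a RefSeq symbol, used for gene order only. The members and lists were chosen with earlier results of these data known. Sequences were not used here, and some members, which stand in the counts over all members, are not reported singly here.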

Additional observations from a re-analysis of the deposited data

How the results depend on the processing

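The number of members called lower was 12 and stayed between 12 and 14 under RLE and upper-quartile normalization, both other filters, unstranded counts, DESeq2 and the replicate block, and each of these settings kept the same 12 genes. A replicate block left 12 members called lower, 1 higher and 3280 genes in all, and changed no call of a member. Partner genes called lower went from 16 to 17, with the 16 kept. Those called higher stayed at 6, of which 5 were kept, since ctnnal1 lost its call and another gene gained one. Pairing by replicate number was not assumed in the main fit. The deviations of same-numbered libraries had a correlation of -0.21, which with 2 libraries per condition cannot show whether the numbers pair the samples. With the numbers crossed, chosen after seeing the data, 4843 genes in all, 14 members lower and 2 members higher were called. Members called higher numbered 2 also with the filter of at least 1 read in any library, the added gene being cldn23. itgb6 and krt17 were called lower with that filter, with DESeq2 and with the crossed numbers. With each library left out, where the lone library is assumed to vary like those of the other condition, all genes called ranged from 542 to 3978, members called lower from 6 to 17, members called higher from 0 to 6, partner genes called lower from 5 to 23 and partner genes called higher from 0 to 8. The lowest numbers came without CoMo replicate 1, and leaving out CoMo replicate 2 gave 879 genes, 7 members lower and 5 partner genes lower. Of the 13 called members, cldn1, cldn34, itga1, itga3 and krt12 were called in every setting in which they were tested, but itga1 passed the filter in only 1 of the 4 fits that left out a library. All of these but itga1 have their name from the table of H1H2Mo against CoMo, which largely fixes their calls. The log2FC changed sign without H1H2Mo replicate 1 for epcam (-0.10, and up to 0.56 without another library), pcdh1 (-0.083, up to 0.94) and cgn (-0.26, up to 1.28). Depth limits the members under 1 CPM (such as cdh15, cldn3, itga1, itgb8 and pcdhgc4).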
